A study of Canis lupus familiaris with 12 samples.

Results

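Dendritic cells (DCs) take up antigen in tissue, carry it through lymph to the draining lymph node and present it there to naive T cells. Conventional type 1 DCs, which in mice and humans depend on the transcription factor BATF3 and carry the receptor CLEC9A, cross-present antigen to CD8 T cells, whereas conventional type 2 DCs, marked in humans by CD1C, mainly prime CD4 T cells. FLT3 is the growth factor receptor that sustains both lineages, and CD83 and LAMP3 mark DCs that have matured. HSD11B1 encodes 11-beta-hydroxysteroid dehydrogenase type 1, which regenerates active glucocorticoid inside the cell, and is used together with CD209 and CCL13 as a DC marker in the cell scoring of nCounter panels.

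The genes described are those of a list of 9 DC genes, HSD11B1, LAMP3, CD83, BATF3, CLEC9A, FLT3, CD209, CD1C and CD1E, that had a probe of that name. Of these, 6 were found among 780 endogenous genes, namely HSD11B1, CD83, FLT3, CD209, CD1C and CD1E. LAMP3, BATF3 and CLEC9A were not analysed here, so the most specific genes of type 1 DCs and one maturation gene are missing from the account.

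Lymph nodes came from 6 pet dogs with sinonasal cancer, whose tumors all received 3 fractions of 10 Gy by stereotactic body radiation therapy (SBRT). The field of 3 dogs also covered the submandibular and retropharyngeal nodes of both sides (elective nodal irradiation, ENI), and that of the other 3 dogs covered the tumor only. The ENI dogs were 7 to 14 years old, 2 neutered males and 1 spayed female, with a carcinoma, a sarcoma and a malignant tumor. The tumor only dogs were 3 to 9 years old, 1 neutered male and 2 spayed females, with 2 carcinomas and 1 malignant tumor. Per the study's methods ipsilateral mandibular nodes were taken out 2 weeks after SBRT, and untreated nodes were not part of the comparison. The labels hold 2 samples of each dog, 6 in each group, and do not say how the 2 differ. The part of age, sex or tumor type in the values was not tested, because group means and SDs were used.

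RNA was counted with the NanoString nCounter, which tallies transcripts by hybridised fluorescent barcodes and uses no amplification, with a canine immuno-oncology panel. The values are normalized counts, 1 mean and 1 SD for each group as the authors exported them, so single samples cannot be shown and the depth of each sample is unknown. The group values are geometric means, because over the 20 housekeeping genes the log2 ratio had a mean of -2.62e-05, as scaling to these genes gives only for geometric means. Lymphocyte genes were present at high levels in both groups, with authors' means of 2122 normalized counts with ENI and 1443 without for the B cell gene MS4A1 and of 2627 and 4393 for the T cell gene CD3E. The label as lymph node was kept, although the extraction protocol speaks of tumor tissue. Levels of lymphocyte genes alone cannot settle which tissue was used. In a bulk sample a lower value may come from fewer cells of a type or from less RNA in each cell, and these cannot be told apart.

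HSD11B1 was the DC gene that differed most between the groups. Its probe, which starts at base 372 of transcript NM_001005756.1, gave an authors' mean of 193 normalized counts (authors' SD 35) in irradiated nodes. In non-irradiated nodes the mean was 54.9 normalized counts (authors' SD 29.9). The range of 1 SD around the mean was 158 to 228 counts with ENI and 25.0 to 84.8 counts without. Such ranges also lay apart between groups for other genes, TLR3, DUSP1 and PDGFRB among them, so this does not single out HSD11B1. How many of the 780 genes have such ranges apart was not counted. HSD11B1 rose 3.52-fold (95% interval 2.36 to 5.26), a log2 ratio of 1.82 ± 0.27 (SE) with an adjusted p of 0.00151 by limma's moderated test over samples and Benjamini-Hochberg adjustment over the 780 genes. Here rose and fell mean higher or lower than in nodes of other dogs. It had the highest log2 ratio of all 780 genes, of which 8 (1.03%) exceeded 1.

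**Figure D1:**
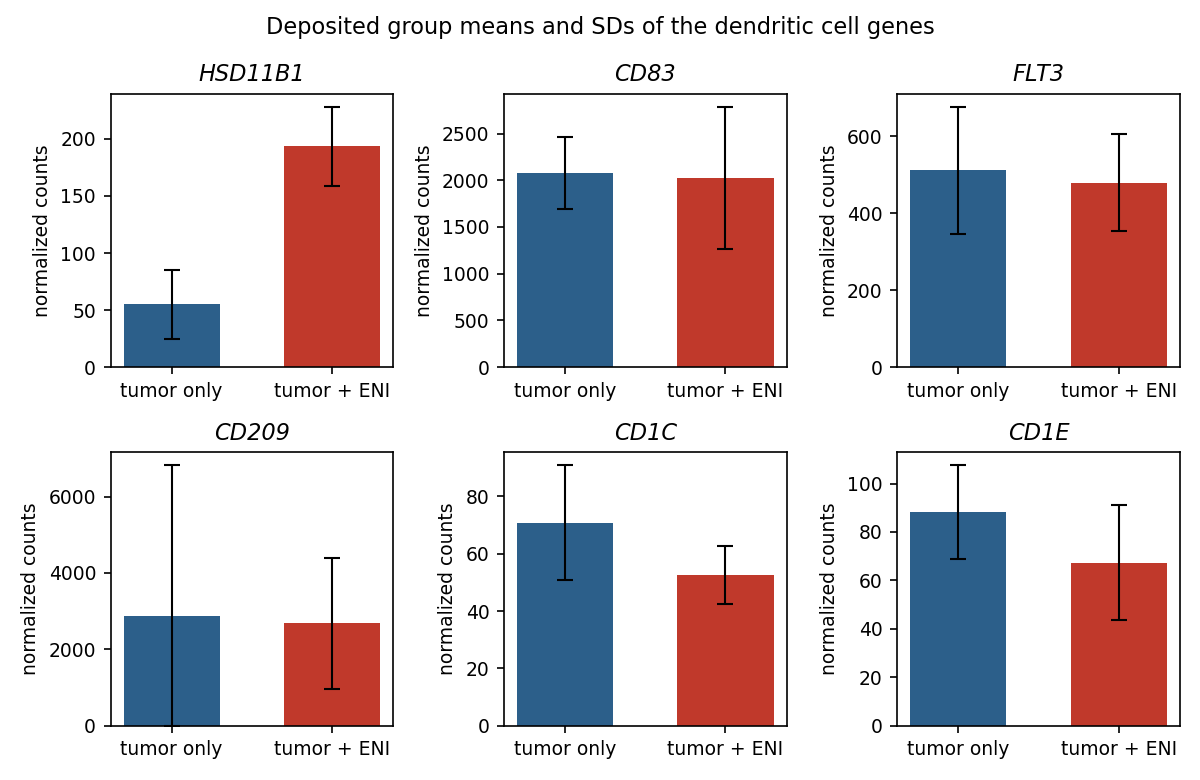
Authors' group means (bars) and SDs (error bars, cut at 0) of the 6 DC genes in normalized counts, each panel with its own linear axis, in nodes after tumor only SBRT (blue) or SBRT with ENI (red), 6 samples of 3 dogs in each group. HSD11B1 stood at 54.9 counts after tumor only SBRT and at 193 counts with ENI.

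How far single samples could lie from these means follows from the means and SDs themselves. A set of 6 values with the irradiated mean and SD of HSD11B1 cannot include one below 125 counts, and those with the non-irradiated mean and SD cannot include one above 120 counts. The samples of the groups therefore cannot have overlapped for HSD11B1 if the deposited SD was computed with the usual divisor of 1 less than the number of samples. With the number of samples as divisor, the limits would be 119 and 127 counts, and an overlap would be possible. The divisor is not given in the sources used here. Under the first divisor 5 of 780 genes (0.641%) could be shown not to overlap, 2 of them higher in irradiated nodes (0.256%), HSD11B1 and the recombination gene BRCA2. The other 3, PDGFRA, CXCL12 and the chemokine receptor CCR9, were lower. None of the other 5 DC genes was among them. Of the 5 genes so shown, HSD11B1 alone could overlap with the number of samples as divisor, while the groups stayed apart for the others.

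These p-values count both samples of a dog as independent, which makes them too small to the extent that such samples are alike. In the assumed case that they were identical, which leaves 3 values in each group, the log2 ratio of HSD11B1 kept a 95% interval above 0 (0.94 to 2.69, unadjusted p = 0.000521), but its adjusted p by limma became 0.203. That was the smallest adjusted p of the 780 genes in this case, so 0 genes passed (0%). At an unadjusted p under 0.05 there were 35 genes (4.49%), HSD11B1 being the one DC gene among them.

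The genes most like HSD11B1 over the 2 groups, by the distance between log2 ratios, were SPP1, CXCL14 and TNFRSF17. SPP1, which encodes the secreted phosphoprotein osteopontin, had authors' means of 458 normalized counts with ENI and 133 without it (log2 ratio 1.78 ± 0.41 SE, adjusted p = 0.0275). The chemokine CXCL14 had 192 counts with ENI and 59.5 without it (1.69 ± 0.43 SE, adjusted p = 0.0419). Both calls were lost in 5 of the 13 alternatives, namely with unmoderated variances (adjusted p = 0.0554 for SPP1 and 0.0727 for CXCL14), with a separate variance for each group (0.0855 and 0.125), with SD over mean as the log SD (0.113 and 0.196), with Benjamini-Yekutieli adjustment (0.199 and 0.303) and with samples of a dog assumed identical (0.503 and 0.727). TNFRSF17, the plasma cell receptor BCMA, stood at 1.46 ± 0.64 (SE, adjusted p = 0.202), with an authors' SD of 1841 on a mean of 1280 counts in irradiated nodes. The likeness rests on a single ratio for each gene.

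Of the 6 DC genes 1 passed the threshold, in a panel in which 28 genes passed (3.59%), 13 higher (1.67%) and 15 lower (1.92%). The other 5 had negative log2 ratios in the main test, as did 428 of all 780 genes (54.9%), and those of CD209 and CD83 changed sign in an alternative setting. The median of the 6 genes was -0.10, beside -0.05 over all endogenous genes. HSD11B1 thus moved apart from the rest of the list rather than with it.

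CD209 (DC-SIGN) is a C-type lectin that in humans binds glycans of pathogens on DCs and macrophages. Its authors' mean was 2682 normalized counts with ENI and 2879 without it (log2 ratio -0.10 ± 0.49 SE, adjusted p = 0.944). The SDs were 1710 and 3948 counts, the second larger than the mean itself. Values with such SDs must span at least 3122 counts in irradiated and 7208 counts in non-irradiated nodes between the lowest and the highest sample. At least 1 non-irradiated sample therefore lay above 7208 counts. Only 4 of 780 genes had a larger SD relative to the mean in non-irradiated nodes, TNFRSF17, the kinase MAPK8, the interleukin receptor IL13RA2 and the keratin KRT7. The 95% interval of the CD209 ratio, from 0.447-fold to 1.94-fold, spans both directions widely, so a difference of that size was not detectable in these samples. With that interval no direction can be given for CD209. In the alternative that took the same columns as arithmetic means, the log2 ratio was 0.42 (adjusted p = 0.736 by limma).

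CCL13, a monocyte chemoattractant and the third gene of the nCounter DC markers, had 129 normalized counts (authors' SD 22.0) with ENI and 147 (authors' SD 27.6) without it. Its log2 ratio was -0.19 ± 0.17 (SE, adjusted p = 0.538). Of the 3 genes that are scored together, 1 rose and 2 had intervals that include 0, that of CD209 widely. A mean over the 3 in the main test would therefore be carried by HSD11B1.

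**Figure D2:**
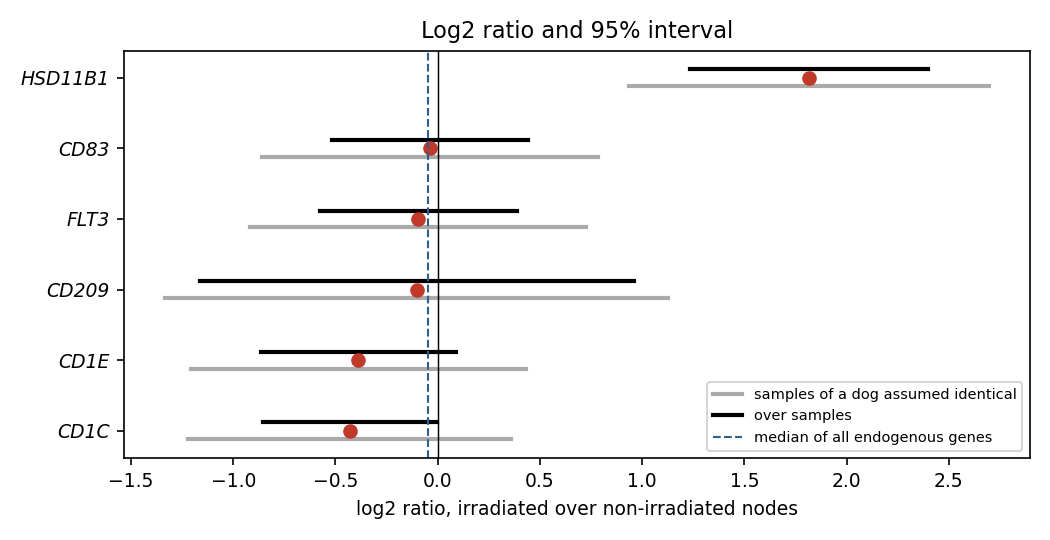
Log2 ratio, ENI over tumor only, of the 6 DC genes (points) with 95% intervals over samples (black) and with the 2 samples of a dog assumed identical (grey), beside the median of all endogenous genes (dashed line at -0.05). The intervals of HSD11B1 lie above 0 in both cases, and those of the other genes cross 0, except the interval of CD1C over samples, which ends just below it.

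CD1C and CD1E belong to the CD1 family, whose proteins bind lipid antigens. CD1C presents them to T cells at the cell surface and in humans marks type 2 DCs, and CD1E works inside the cell in lipid loading. The CD1C probe gave 52.6 normalized counts (authors' SD 10.1) with ENI and 70.8 (authors' SD 20.1) without it. The difference, 1.35-fold lower in irradiated nodes (log2 ratio -0.43 ± 0.20 SE), had an unadjusted p of 0.0475 and did not pass after adjustment (adjusted p = 0.220). With HSD11B1 it was the second DC gene under an unadjusted p of 0.05, as were 171 of 780 genes (21.9%). The CD1E probe gave 67.4 counts (authors' SD 23.6) and 88.2 counts (authors' SD 19.5), which is 1.31-fold lower (log2 ratio -0.39 ± 0.22 SE, adjusted p = 0.341). For both genes the ranges of 1 SD overlapped between groups, 42.5 to 62.7 against 50.7 to 91.0 counts for CD1C and 43.8 to 90.9 against 68.7 to 108 counts for CD1E.

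The panel held 3 further CD1 genes, which were added after the values were seen. CD1B, which lies between CD1E and CD1C in the dog reference gene order, gave a log2 ratio of -0.14 ± 0.22 (SE, adjusted p = 0.769). CD1A6 stood at 0.32 ± 0.36 (SE, adjusted p = 0.656) and CD1D, which presents lipids to natural killer T cells, at 0.17 ± 0.32 (SE, adjusted p = 0.819). Of the 5 CD1 genes 3 were lower and 2 higher, with a median of -0.14, and 0 passed by limma's test, 1 having an unadjusted p under 0.05. Over the panel 54.9% of genes were lower and 21.9% had such a p.

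FLT3 had 479 normalized counts (authors' SD 126) with ENI and 511 (authors' SD 166) without it. Its log2 ratio of -0.10 ± 0.23 (SE, adjusted p = 0.869) has a 95% interval of -0.58 to 0.39. Its ligand FLT3LG, at 62.1 and 82.8 counts, gave a log2 ratio of -0.41 ± 0.22 (SE, adjusted p = 0.300). Among the 8 measured growth factors and receptors of DCs and related myeloid cells, 7 were lower and 1 was higher, with a median of -0.28, and 0 passed. Over the panel 54.9% of genes were lower. The macrophage growth factor CSF1 (-0.83 ± 0.22 SE, adjusted p = 0.0518) lay just outside the threshold and passed with a trend of variance on level (adjusted p = 0.0463), with a minimum level of 20 counts (0.0454) and with a pseudocount of 10 (0.0479). In the other alternatives CSF1 did not pass (adjusted p up to 0.375, and 0.999 with samples of a dog assumed identical). Its receptor CSF1R stood at -0.73 ± 0.30 (SE, adjusted p = 0.172), IL34, the other ligand of that receptor, at -0.37 ± 0.17 (SE, adjusted p = 0.228) and the granulocyte receptor CSF3R at 0.28 ± 0.16 (SE, adjusted p = 0.326).

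CD83, an immunoglobulin family protein that stabilises MHC class II and CD86 on mature DCs and is also found on activated B cells, had 2025 normalized counts (authors' SD 764) with ENI and 2079 (authors' SD 386) without it. Its log2 ratio was -0.04 ± 0.22 (SE, adjusted p = 0.960), with a 95% interval of -0.52 to 0.44, and became 0.0086 after centring on the median of the endogenous genes. The other genes of DC maturation were split around it. Of the other 15 measured, 7 were higher and 8 lower (median -0.07, beside -0.05 over the panel), and 0 passed by limma's test, 2 having an unadjusted p under 0.05. These were the cytokine IL15 (0.55 ± 0.19 SE, adjusted p = 0.110) and the co-stimulatory receptor CD40 (0.64 ± 0.23 SE, adjusted p = 0.127), both higher, while CD80 stood at 0.44 ± 0.30 (SE, adjusted p = 0.435). The cytokine subunit EBI3 stood at -0.42 ± 0.20 (SE, adjusted p = 0.241). CCR7, the receptor that guides DCs and naive T cells into the node, had 1199 counts with ENI and 1710 without it with SDs of 843 and 860 (log2 ratio -0.51 ± 0.37 SE, adjusted p = 0.453).

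Genes that in mice or humans mark type 1 DCs were all lower without passing the test. Of 5 measured, 5 were lower, with a median log2 ratio of -0.40, and 2 had an unadjusted p under 0.05. Over the panel 54.9% of genes were lower and 21.9% had such a p. Whether the 5 genes reflect type 1 DCs in a whole node was not tested. The chemokine receptor XCR1, the most specific of them, had 85.9 normalized counts (authors' SD 16.3) with ENI and 108 (authors' SD 12.6) without it (log2 ratio -0.32 ± 0.16 SE, adjusted p = 0.241). The RNA sensor TLR3 had 101 counts with ENI and 170 without it (-0.75 ± 0.20 SE, adjusted p = 0.0518) and passed in 4 of the 13 alternatives (adjusted p from 0.0454). In the others TLR3 did not pass (up to 0.375, and 0.999 with samples of a dog assumed identical). The integrin ITGAE stood at -0.80 ± 0.28 (SE, adjusted p = 0.116). The transcription factor IRF8 stood at -0.40 ± 0.30 (SE, adjusted p = 0.470). ITGAE is also found on CD8 T cells, and the CD8 genes CD8A (-1.41 ± 0.38 SE, adjusted p = 0.0519, but 0.0477 with a minimum level of 20 counts and 0.0488 with a variance trend) and CD8B (-1.42 ± 0.44 SE, adjusted p = 0.0797) had lower values in the same nodes. In the other alternatives CD8A did not pass (adjusted p up to 0.376, and 0.818 with samples of a dog assumed identical). The part of T cells in the ITGAE value was not tested.

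Type 2 DC genes other than the CD1 genes were mixed, the IgE receptor chain FCER1A at -0.49 ± 0.32 (SE, adjusted p = 0.417) and the transcription factor IRF4, which plasma cells also use, at 0.48 ± 0.32 (SE, adjusted p = 0.435). Of the 7 measured, CD1C and CD1E included, 5 were lower and 2 higher (median -0.22), and 0 passed. Of 5 plasmacytoid DC genes 3 were lower and 2 higher (median -0.10), beside 54.9% lower over the panel. Here 0 passed by limma's test or had an unadjusted p under 0.05. Lower were, among others, the nucleic acid sensors TLR9 (-0.32 ± 0.27 SE, adjusted p = 0.531) and TLR7 (-0.14 ± 0.24 SE, adjusted p = 0.795). Higher were the adaptor BLNK (0.13 ± 0.19 SE, adjusted p = 0.743) and the transcription factor SPIB (0.20 ± 0.21 SE, adjusted p = 0.628). SPIB is also counted among the B cell genes below.

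**Figure D3:**
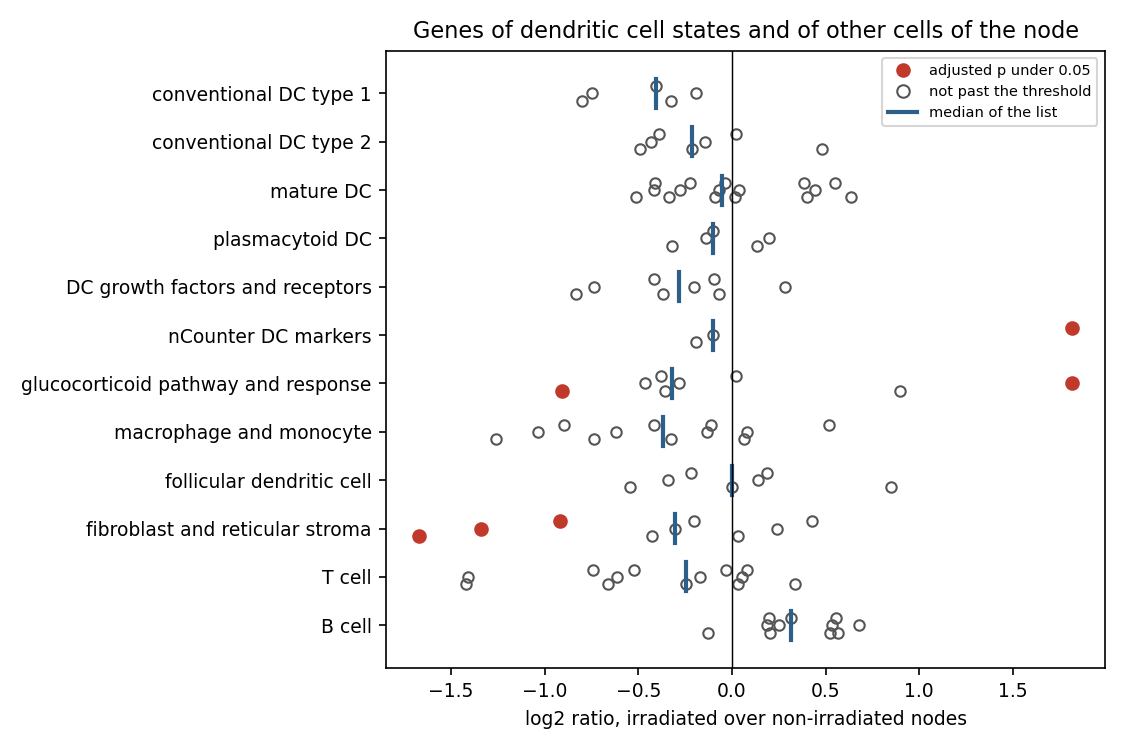
Log2 ratio, ENI over tumor only (circles), for genes of DC states, of the glucocorticoid pathway and of other cells of the node, with list medians (blue bars); filled circles had an adjusted p under 0.05. HSD11B1, at 1.82 in 2 of the rows, stands apart from every other circle drawn, the highest of which is ANXA1 at 0.90. Genes outside these lists are not drawn, among them SPP1 at 1.78, CXCL14 at 1.69 and TNFRSF17 at 1.46.

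Because HSD11B1 acts on glucocorticoids, genes that respond to these hormones were examined as well. Of 16 genes listed for this pathway 8 were measured. The glucocorticoid receptor gene NR3C1 and the response genes TSC22D3, FKBP5 and PER1 were among those without a probe of that name. The list therefore covers the pathway only in part. Of the 8 measured, HSD11B1 included, 3 were higher and 5 lower (median -0.32), beside 54.9% lower over the panel. DUSP1, a phosphatase that glucocorticoid and also stress signals induce, fell to 533 normalized counts with ENI, against 1000 without it (log2 ratio -0.91 ± 0.19 SE, adjusted p = 0.0215). With Benjamini-Yekutieli adjustment its call was lost (adjusted p = 0.156), and with samples of a dog assumed identical as well (adjusted p = 0.883). ANXA1, which encodes the anti-inflammatory protein annexin A1, had 2618 counts (authors' SD 368) with ENI and 1404 (authors' SD 1071) without it (log2 ratio 0.90 ± 0.32 SE, adjusted p = 0.116). The NF-kappaB inhibitor NFKBIA (-0.38 ± 0.18 SE, adjusted p = 0.241), TXNIP, an inhibitor of thioredoxin (-0.28 ± 0.14 SE, adjusted p = 0.241), and IL7R (-0.46 ± 0.32 SE, adjusted p = 0.435) had negative ratios. Among the 7 genes other than HSD11B1, 2 were higher and 5 lower, and DUSP1 was the 1 that passed. In the whole panel 28 of 780 genes passed (3.59%).

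HSD11B1 is also expressed by macrophages and fibroblasts, and CD209 by macrophages of the node, so their markers are given beside these genes. Of 12 macrophage and monocyte genes 9 were lower with ENI and 3 higher (median -0.37), and 0 passed by limma's test, 4 having an unadjusted p under 0.05. Over the panel 54.9% of genes were lower and 21.9% had such a p. The sinus macrophage gene SIGLEC1 stood at -1.26 ± 0.34 (SE, adjusted p = 0.0518) and passed in 4 of the 13 alternatives (adjusted p from 0.0461). In the others SIGLEC1 did not pass (up to 0.375, and 0.838 with samples of a dog assumed identical). CD84, which other leukocytes also carry, stood at -0.90 ± 0.32 (SE, adjusted p = 0.123) and the complement gene C1QA at -0.62 ± 0.24 (SE, adjusted p = 0.140). In the whole panel 15 of 780 genes passed as lower (1.92%). Of 9 fibroblast and reticular stroma genes 6 were lower and 3 higher (median -0.30), and 3 fell. These were the receptors PDGFRA (-1.67 ± 0.17 SE, adjusted p = 7.57e-05) and PDGFRB (-0.92 ± 0.18 SE, adjusted p = 0.012, but 0.0872 by Benjamini-Yekutieli) and the chemokine CXCL12 (-1.34 ± 0.14 SE, adjusted p = 7.57e-05), while the stromal glycoprotein gene PDPN stood at 0.43 ± 0.24 (SE, adjusted p = 0.326), CCL21 at -0.43 ± 0.35 (SE, adjusted p = 0.525), THY1 at -0.30 ± 0.26 (SE, adjusted p = 0.531) and FN1 at -0.20 ± 0.24 (SE, adjusted p = 0.675). The rise of HSD11B1 thus stood beside medians below 0 for both of these cell types, and the part of either in its value was not tested.

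CD83 can also come from activated B cells, and lymphocyte and follicular genes are given beside it. Of 11 B cell genes 10 were higher (median 0.32), beside 352 of all 780 genes. TNFRSF13B stood at 0.57 ± 0.18 (SE, adjusted p = 0.0793), MS4A1 at 0.56 ± 0.26 (SE, adjusted p = 0.228) and TNFRSF13C at 0.54 ± 0.26 (SE, adjusted p = 0.245). Of 13 T cell genes 9 were lower (median -0.25), with CD3E at -0.74 ± 0.30 (SE, adjusted p = 0.161) and LCK at -0.66 ± 0.28 (SE, adjusted p = 0.190) after the CD8 genes. Of 7 follicular dendritic cell genes, a stromal cell unrelated to DCs, 4 were higher and 3 lower (median 0.0026), with CXCL13 at 0.85 ± 0.38 (SE, adjusted p = 0.208), TNFRSF1A at -0.55 ± 0.18 (SE, adjusted p = 0.0865), CLU at -0.34 ± 0.29 (SE, adjusted p = 0.531) and VCAM1 at 0.14 ± 0.13 (SE, adjusted p = 0.580). In these 3 lists 0 genes passed by limma's test, and 8 had an unadjusted p under 0.05. Over the panel 54.9% of genes were lower and 21.9% had such a p. The B cell and follicular lists share a gene.

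The DC genes also differed in how evenly they were expressed within a group. Over all endogenous genes the median SD was 22.9% of the mean in irradiated and 32.2% in non-irradiated nodes. For 510 of the 780 genes it was the larger in non-irradiated nodes. The SD of HSD11B1 was 18.1% of the mean among irradiated nodes, where 520 of 780 genes were more uneven. Among non-irradiated nodes it was larger, at 54.5%, where 156 of 780 genes were more uneven. CD83 showed the reverse, with 37.7% and 18.6%, and so did CD1E, with 35.0% and 22.1%. CD1C had 19.2% and 28.4% and FLT3 26.3% and 32.4%, near the medians of the panel, and CD209 was the most uneven DC gene in both groups, with 63.8% and 137%. Because the 2 samples of a dog enter each SD, spread between dogs and between samples of 1 dog cannot be told apart, and the differences in spread were not tested.

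**Figure D4:**
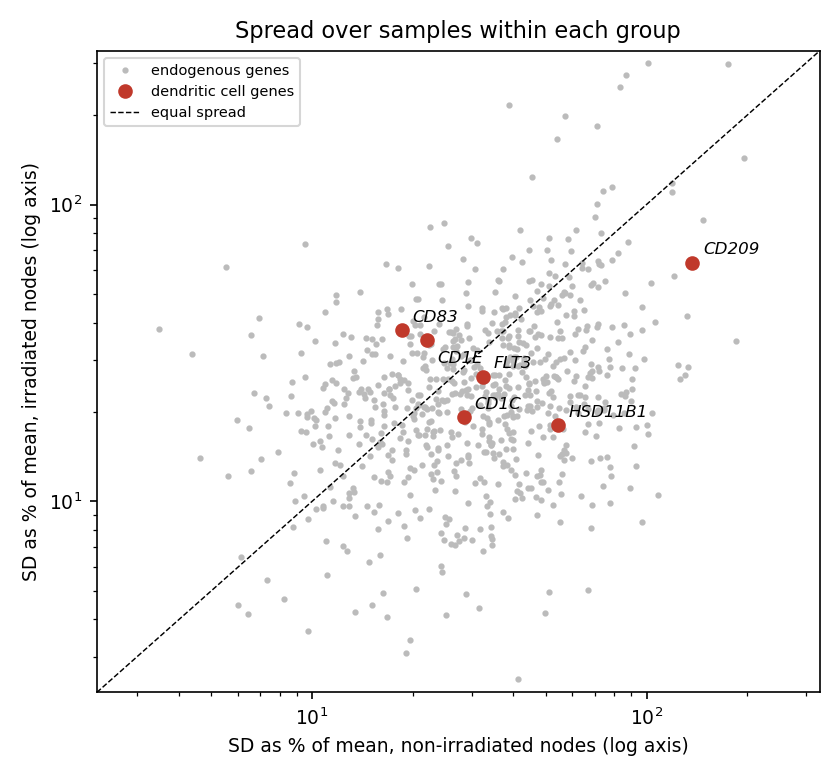
SD over samples as a percentage of the group mean in non-irradiated (x axis) and irradiated (y axis) nodes for all endogenous genes (grey) and the 6 DC genes (red), both axes logarithmic, with the dashed line marking equal spread. HSD11B1 and CD209 lie below the line, at 54.5% against 18.1% and 137% against 63.8%, and CD83 and CD1E above it. CD1C and FLT3 also lie below it, as do 510 of all 780 genes.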

How the data were processed

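Lymph node RNA of 12 samples from 6 dogs was measured on the NanoString Canine IO 360 panel and analysed by the authors in nSolver (version and background setting: not given in the sources used here). The authors deposited, per the file headers, a group mean and a group SD of the normalized signal of each of 800 probes. The fold change, confidence limits, p-value and adjusted p-value columns were not used. No values of single samples were used, so intervals cover only the spread that the SDs hold and the depth per sample is unknown.

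Groups followed the irradiation status in the labels. Each SD was converted to a variance on the log scale for log-normal values with the deposited geometric mean, variances of both groups were pooled (10 degrees of freedom), and the log2 ratio was tested with limma 3.58.1 (R 4.3.3; eBayes without trend). No pseudocount was used in the main test. Benjamini-Hochberg adjustment ran over 780 endogenous genes with a threshold of 0.05. The procedure was tested on simulated data, where its p-values were too small for unchanged genes when the 2 samples of a dog were made identical, and a larger share of its calls were then unchanged genes than with independent samples. Limits on the lowest and highest sample were solved from mean and SD with scipy 1.17.1 (Python 3.11.15), a step added after the data were seen. Of the 6 probes, 4 matched the dog RefSeq gene table (assembly UU_Cfam_GSD_1.0) by transcript accession, all with the same symbol; the table was used for names and gene order only.

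The genes and gene lists were chosen with earlier results of these data known. Named are the listed genes with a probe, in each list the genes past the threshold and up to 4 more with the smallest p, and the 3 genes nearest to HSD11B1 in log2 ratio. Other genes named (CCR7, CSF3R, the 3 further CD1 genes, BRCA2, CCR9, MAPK8, IL13RA2 and KRT7) were outside this rule and were chosen after their values were seen. The values of 1 gene that the rule names are not reported here. Alternatives covered the replication unit, the variance model, the kind of mean, scaling, a minimum level of 20 normalized counts, pseudocounts of 1 and 10 and the adjustment.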

Additional observations from a re-analysis of the deposited data

How the results depend on the processing

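HSD11B1 passed in 12 of 13 alternatives, with a log2 ratio of 1.65 to 1.98 and an adjusted p of 0.00135 to 0.0298 over those and the main test. Assuming the 2 samples of a dog identical ended its call (log2 ratio 1.82, adjusted p = 0.203), left 0 DC genes and 0 of 780 genes past the threshold, and has larger errors by construction. Against 28 genes in the main test, Benjamini-Yekutieli adjustment, which is stricter by construction, gave 7 and taking SD over mean as the log SD gave 16, where the cause was not tested. CD209 turned to 0.42 with the group columns taken as arithmetic means and CD83 to 0.0086 when centred on the endogenous median, both far from the threshold. FLT3, CD1C and CD1E stayed below 0 and did not pass in any alternative. Leaving out a sample or a dog and fitting the dog as a block were not run, because values of single samples were not used. No paired analysis was possible because no dog contributed to both groups. The unknown depth of the samples and the 3 dogs in each group limit the size of difference that could be detected.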
